A study of Mus musculus with 5 samples.

Results

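A set of 10 genes that write, read or remove DNA methylation, or that bind CpG, was described at promoters and across gene bodies in DP (CD4+CD8+ double-positive) thymocytes: Dnmt1, Uhrf1, Dnmt3a, Dnmt3b, Tet1, Tet2, Tet3, Kdm2a, Kdm2b and Cxxc5. They were chosen by name from the 22372 protein-coding genes of the annotation (GENCODE vM1, mm9). The study asked where Cxxc1 binds in these immature T cells and how trimethylation of histone H3 lysine 4 (H3K4me3), a mark of promoters, differs without Cxxc1. Chromatin immunoprecipitation with sequencing (ChIP-seq) was done on DP thymocytes from thymus. Of 5 libraries, 3 lists of enriched 200-bp windows were used: 1 for Cxxc1 and 1 for H3K4me3 in wild-type (WT) cells, and 1 for H3K4me3 when Cxxc1 was deleted. By the study's methods, the Cxxc1-deficient mice were Cxxc1 fl/fl hCD2-Cre and WT mice carried the floxed alleles without Cre. The mice were at or just past weaning age unless stated otherwise, and no treatment is given. The hCD2 promoter is active from early lymphoid progenitors on, before the DP stage, and also in other lymphocytes. The titles of the Cxxc1-deficient samples read KO, whereas their genotype label reads Cxxc1+/-. The titles were followed, and the Cxxc1 list carries no genotype of its own.

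Each list describes 1 ChIP library, called against control libraries, so a difference between genotypes had no replicate check and no test was made. Values are RPM (mapped tags of a window scaled to 1 M tags of the library), and a peak is a run of listed windows with at most 2 missing windows in a row, its strength being the RPM summed over its windows. The lists held 4352 Cxxc1 peaks, 14237 WT H3K4me3 peaks and 2979 Cxxc1-deficient H3K4me3 peaks, with median strengths of 1.7, 2.3 and 2.0 RPM. The step between values placed the depth at 9.1 to 9.23 M tags for Cxxc1 and at 9.42 to 9.47 M tags for each H3K4me3 library. The weakest listed peak of each list held 10 tags, or 1.1 RPM, so a place with no peak had an unknown signal under the calling threshold and not a signal of 0. In bulk chromatin, fewer cells with the mark and less mark per cell cannot be told apart. Of the DP thymocyte markers, 6 of 10 had WT H3K4me3 at a TSS (transcription start site), among them Cd8a, Cd3e, Lck, Bcl11b and Tcf7, but Cd4, Cd3d, Rag1 and Rag2 did not. Of the markers of other cells, 1 of 5 B cell genes (Ebf1), 1 of 5 myeloid genes (Spi1) and 0 of 5 thymic epithelium genes had it. In Cxxc1-deficient cells it was listed at a TSS of 3 of 10 DP thymocyte markers (Cd8a, Cd3e and Rag1). There 0 of 5 B cell, 1 of 5 myeloid (Spi1) and 0 of 5 thymic epithelium genes had it. Of all genes, 31.1% had it in WT and 5.86% in Cxxc1-deficient cells.

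In mammals, DNA methylation sits mainly on the cytosine of CpG. Dnmt3a and Dnmt3b place new methyl groups, Dnmt1 copies them to the new strand after replication with the help of Uhrf1, and the Tet enzymes oxidise them as a step towards their removal. Most CpGs are methylated and have become rare in evolution, whereas CpG islands (CpGI) keep a high CpG density, are mostly unmethylated and often hold promoters. The CXXC zinc finger binds CpG that carries no methyl group. It is found in Cxxc1 itself, in Dnmt1, Tet1, Tet3, Kdm2a, Kdm2b and Cxxc5, so that many of these genes encode proteins that read the same DNA feature as Cxxc1.

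The Cxxc1 peaks of these genes held few CpGs and the promoters with WT H3K4me3 held more, and sequences of both kinds are shown to make this visible. Below are the 200-base windows with the highest Cxxc1 value in each of 4 Cxxc1 peaks, those of Dnmt3a and Kdm2b (for Kdm2b the first of 2 windows tied at 0.4 RPM; mm9, plus strand, 5′ to 3′, CpG in capitals), which held 1 to 3 CpGs each and none of which overlapped an annotated exon.
Dnmt3a chr12:3819801-3820000: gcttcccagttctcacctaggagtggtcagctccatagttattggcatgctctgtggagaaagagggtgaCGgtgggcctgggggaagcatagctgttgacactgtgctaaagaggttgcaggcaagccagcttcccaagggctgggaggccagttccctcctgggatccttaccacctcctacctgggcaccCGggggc
Dnmt3a chr12:3841601-3841800: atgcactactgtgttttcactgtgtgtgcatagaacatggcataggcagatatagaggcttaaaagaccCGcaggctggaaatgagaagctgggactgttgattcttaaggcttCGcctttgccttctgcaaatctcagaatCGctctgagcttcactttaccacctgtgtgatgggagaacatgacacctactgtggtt
Dnmt3a chr12:3865401-3865600: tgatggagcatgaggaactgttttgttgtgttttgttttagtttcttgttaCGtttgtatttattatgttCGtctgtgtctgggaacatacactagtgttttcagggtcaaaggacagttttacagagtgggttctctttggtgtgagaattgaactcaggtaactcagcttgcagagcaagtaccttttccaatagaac
Kdm2b chr5:123340401-123340600: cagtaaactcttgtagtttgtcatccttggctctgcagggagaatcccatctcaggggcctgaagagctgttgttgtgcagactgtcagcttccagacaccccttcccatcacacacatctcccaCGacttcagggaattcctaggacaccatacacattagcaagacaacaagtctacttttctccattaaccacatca

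For comparison, the 200 bases upstream of a TSS are given below, 5′ to 3′ on the strand of the gene, with CpG in capitals. The first 4 lay at TSSs with WT H3K4me3: those of Dnmt1, the outermost and an internal one of Dnmt3a, and Tet2. The last pair, of Tet1 and Tet3, lay at TSSs with no listed window.
Dnmt1 chr9:20757318-20757517, minus strand: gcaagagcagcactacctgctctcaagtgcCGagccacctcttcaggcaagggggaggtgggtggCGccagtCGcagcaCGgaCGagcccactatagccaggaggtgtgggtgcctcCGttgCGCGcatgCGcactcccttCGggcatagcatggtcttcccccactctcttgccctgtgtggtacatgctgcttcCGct
Dnmt3a outermost TSS, chr12:3806327-3806526, plus strand: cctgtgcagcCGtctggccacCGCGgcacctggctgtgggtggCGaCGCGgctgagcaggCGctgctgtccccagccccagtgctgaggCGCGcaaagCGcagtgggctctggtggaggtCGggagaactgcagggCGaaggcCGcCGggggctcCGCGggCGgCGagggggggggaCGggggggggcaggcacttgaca
Dnmt3a internal TSS, chr12:3891528-3891727, plus strand: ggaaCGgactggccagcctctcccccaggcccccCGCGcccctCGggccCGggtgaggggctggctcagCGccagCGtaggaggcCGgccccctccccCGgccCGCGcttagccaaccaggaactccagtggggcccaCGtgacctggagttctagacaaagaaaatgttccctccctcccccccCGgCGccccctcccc
Tet2 chr3:133207355-133207554, minus strand: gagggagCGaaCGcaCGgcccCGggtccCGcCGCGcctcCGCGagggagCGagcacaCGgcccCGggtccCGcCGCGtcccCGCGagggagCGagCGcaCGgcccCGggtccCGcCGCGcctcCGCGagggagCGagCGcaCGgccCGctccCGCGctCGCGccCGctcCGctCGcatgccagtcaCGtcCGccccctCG
Tet1 chr10:62361867-62362066, minus strand: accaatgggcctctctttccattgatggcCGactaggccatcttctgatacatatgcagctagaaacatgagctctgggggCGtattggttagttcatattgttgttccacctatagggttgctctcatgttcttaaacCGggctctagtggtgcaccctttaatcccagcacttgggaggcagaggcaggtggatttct
Tet3 chr6:83391670-83391869, minus strand: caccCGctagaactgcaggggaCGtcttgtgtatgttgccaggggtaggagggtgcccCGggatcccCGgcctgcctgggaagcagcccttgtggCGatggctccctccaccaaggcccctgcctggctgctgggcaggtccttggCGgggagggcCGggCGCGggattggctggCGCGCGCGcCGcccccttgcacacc

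The upstream sequences held 11 CpGs at Dnmt1, 19 and 14 at the outermost and internal TSS of Dnmt3a, 40 at Tet2, 3 at Tet1 and 14 at Tet3. The letters CG, which read the same on both strands, occurred at least once in 90.4% of such 200-base stretches over 22367 genes, with a median of 7.0. They occurred in 84.0% of the highest windows of all 4352 Cxxc1 peaks, with a median of 2.0. With 1 to 3 CpGs, the printed Cxxc1 windows lay around that median.

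WT H3K4me3 was listed within 1 kb of a TSS in 8 of the 10 genes, all but Tet1 and Tet3, against 31.1% of all protein-coding genes. In Cxxc1-deficient DP thymocytes it was listed at a TSS in 4 genes, Uhrf1, Dnmt3a, Dnmt3b and Kdm2b, against 5.86% of all genes. All 4 were among the 8 with the mark in WT. Over all genes, 893 of the 1312 with Cxxc1-deficient H3K4me3 at a TSS had it in WT as well. These Cxxc1-deficient peaks were weak: with only the stronger 50% of each list the count was 1 (Dnmt3b), and with a minimum of 2.3 RPM in both H3K4me3 lists it was 0. Of all 6962 genes with the mark in WT, 12.8% had it in Cxxc1-deficient cells. Of the 6083 whose strongest WT promoter peak lay in the range of these 8 genes (1.8 to 7.7 RPM), 13.2% had it. That range left out few genes, so peak strength was not matched. Cxxc1 itself was listed at a TSS of 1 gene, Dnmt3a, against 1.96% of all genes. Within the gene or the 10 kb before it, the stretch the study used to assign peaks to genes, Cxxc1 was listed in 3 genes: Dnmt3a, Tet1 and Kdm2b. The share of all genes was 11.0%, and it was 15.5% among the 8074 genes whose body and upstream stretch were as long as those of the 10 (30.2 to 152.2 kb). In the same stretch, WT H3K4me3 was listed in 9 genes, against 41.3% of all, and Cxxc1-deficient H3K4me3 in 6, against 10.9% of all. These 10 genes were long, with a median stretch of 90.0 kb against 25.1 kb over all genes.

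**Figure D1:**
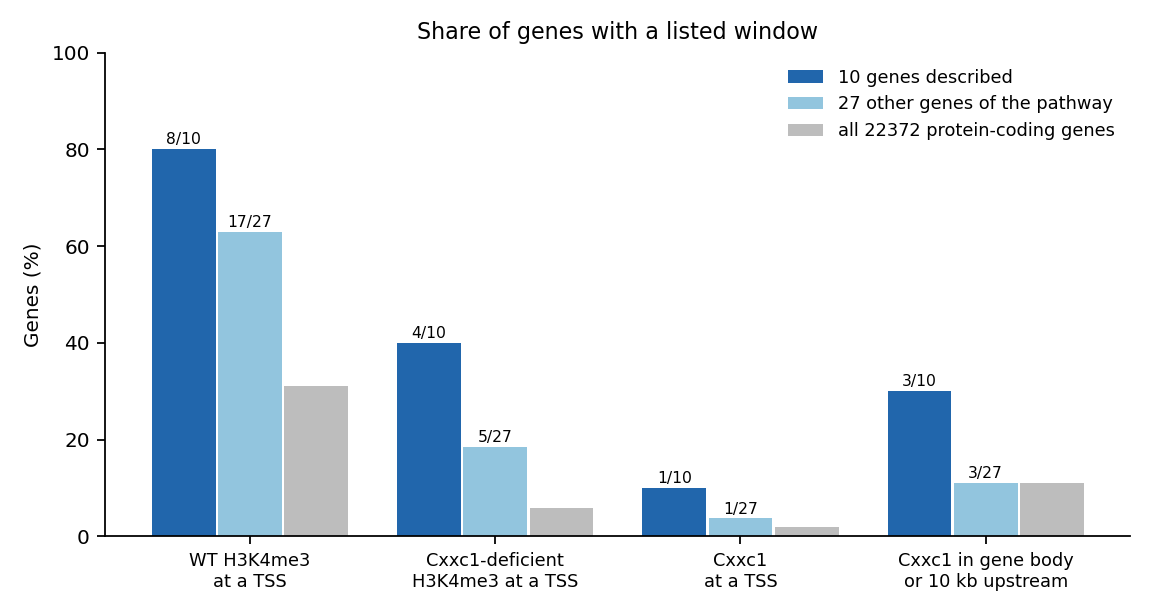
Share of genes (y axis, %) with a listed window, for the 10 genes described, 27 other genes of DNA methylation and CpG binding, and all 22372 protein-coding genes, with counts above the bars. WT H3K4me3 was at a TSS of 8 of 10 and 17 of 27 genes, and Cxxc1-deficient H3K4me3 at a TSS of 4 of 10 and 5 of 27.

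By promoter H3K4me3 in each genotype and Cxxc1 in the gene or its upstream stretch, the 10 genes fell into 5 patterns. Dnmt1, Tet2, Kdm2a and Cxxc5 had promoter H3K4me3 in WT cells only and no Cxxc1 peak, a pattern shared by 23.0% of all genes. Dnmt3b and Uhrf1 had promoter H3K4me3 in both genotypes and no Cxxc1 peak, like 3.31% of all genes. Dnmt3a and Kdm2b were in all 3 lists, with H3K4me3 at a TSS in both genotypes and Cxxc1 in the gene, like 0.684% of all genes (153 genes). Tet1 had Cxxc1 without promoter H3K4me3, like 5.93% of genes. Tet3 had no promoter H3K4me3 in either genotype and no Cxxc1 peak, like 61.1% of genes, although WT H3K4me3 was listed away from its TSSs.

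Dnmt1, the maintenance methyltransferase (ENSMUSG00000004099.8, chromosome 9, 20711650 to 20757317, minus strand), had 1 annotated TSS. Its WT promoter peak spanned 20756201 to 20757800 with 2.9 RPM, or 29 tags (95% Poisson interval 19.4 to 41.6). It was stronger than the strongest promoter peak of 58.9% of the genes that had one. A weaker WT peak of 2.1 RPM lay in an intron 36.62 kb downstream of the TSS. No Cxxc1-deficient H3K4me3 window and no Cxxc1 window was listed at the gene. Here and below the intervals cover counting error only, and the deposited reads carried no molecular identifiers.

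Uhrf1, which binds hemimethylated DNA and brings Dnmt1 to it (ENSMUSG00000001228.8, chromosome 17, 56442744 to 56462909, plus strand), had H3K4me3 at its promoter in both genotypes. The WT peak, 56441801 to 56444600, held 41 tags (29.4 to 55.6) and 4.1 RPM. The Cxxc1-deficient peak, 56443001 to 56443800, held 14 tags (7.7 to 23.5) and 1.4 RPM and lay wholly inside it. The ratio of WT to Cxxc1-deficient tags was 2.93 (exact 95% interval 1.56 to 5.82). It set peaks of unequal width against each other and so does not compare the same stretch. Across the 3 windows that these peaks shared, the sums were 0.7 RPM in WT and 1.4 RPM without Cxxc1. The Cxxc1-deficient value was higher in all 3. What Cxxc1-deficient signal lay under the remaining part of the WT peak is unknown. The Cxxc1-deficient peak was the shortest that a promoter of these genes had, at 0.8 kb against 2.8 kb in WT. The gene had 2 TSS clusters (groups of TSSs within 500 bp of each other) that start 992 bp apart, and the Cxxc1-deficient peak began between them and reached the start of the second. In WT a further peak of 3.2 RPM lay in an intron 9.46 kb downstream, and 1 of 1.6 RPM about 10 kb upstream was nearer to the TSS of Plin3. Neither had a Cxxc1-deficient counterpart.

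Dnmt3a, a de novo methyltransferase (ENSMUSG00000020661.9, chromosome 12, 3806527 to 3914443, plus strand), had the most Cxxc1 peaks of the 10 genes, 3, and promoter H3K4me3 at 2 separate places. At the outermost promoter the WT peak, 3805801 to 3808400, held 47 tags (34.5 to 62.5) and 4.7 RPM. The Cxxc1-deficient peak inside it, 3806401 to 3808000, held 17 tags (9.9 to 27.2) and 1.7 RPM, a ratio of 2.76 (1.56 to 5.14). This ratio too set unequal widths against each other, 2.6 kb in WT and 1.6 kb without Cxxc1. Across the 4 windows that these peaks shared, the sums were 1.7 RPM in WT and 1.5 RPM without Cxxc1. The internal promoter 85.2 kb downstream, from which a shorter transcript is annotated, had a WT peak at 3891201 to 3893400 of similar strength, with 43 tags (31.1 to 57.9) and 4.3 RPM. No Cxxc1-deficient window was listed there. Between the promoters stood 5 intronic WT peaks of 1.5 to 2.4 RPM, none with a Cxxc1-deficient counterpart. The 2 promoters thus differed in whether a Cxxc1-deficient peak was listed, while their WT tag intervals overlapped. The listed Cxxc1-deficient peak was weak, above only 19.2% of the peaks of its list. The Cxxc1-deficient signal at the internal promoter is unknown and may be similar.

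The Cxxc1 peaks of Dnmt3a spanned 3819201 to 3820800 (1.7 RPM, 16 tags), 3840801 to 3841800 (1.8 RPM, 18 tags) and 3865401 to 3867400 (2.3 RPM, 23 tags). The third covered an annotated TSS at 3866191, which had no H3K4me3 window in either genotype, and it was the reason that Dnmt3a counted as bound at a TSS. None reached the outermost or the internal promoter with H3K4me3. Their gaps to the nearest WT H3K4me3 peak were 10.8, 1.4 and 2.2 kb.

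Dnmt3b, the other de novo methyltransferase (ENSMUSG00000027478.9, chromosome 2, 153475186 to 153513466, plus strand), had its 10 protein-coding transcripts starting in 1 TSS cluster. The WT peak, 153474601 to 153476600, held 32 tags (21.9 to 45.2) and 3.2 RPM. The Cxxc1-deficient peak, 153475601 to 153477000, held 21 tags (13.0 to 32.1) and 2.1 RPM, the strongest Cxxc1-deficient promoter peak of the 10 genes. The ratio of 1.52 had an interval that included 1 (0.852 to 2.78). Its midpoint lay 1.11 kb downstream of the TSS, whereas that of the WT peak lay 0.41 kb downstream. No other peak of any list was in the gene or its upstream stretch.

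**Figure D2:**
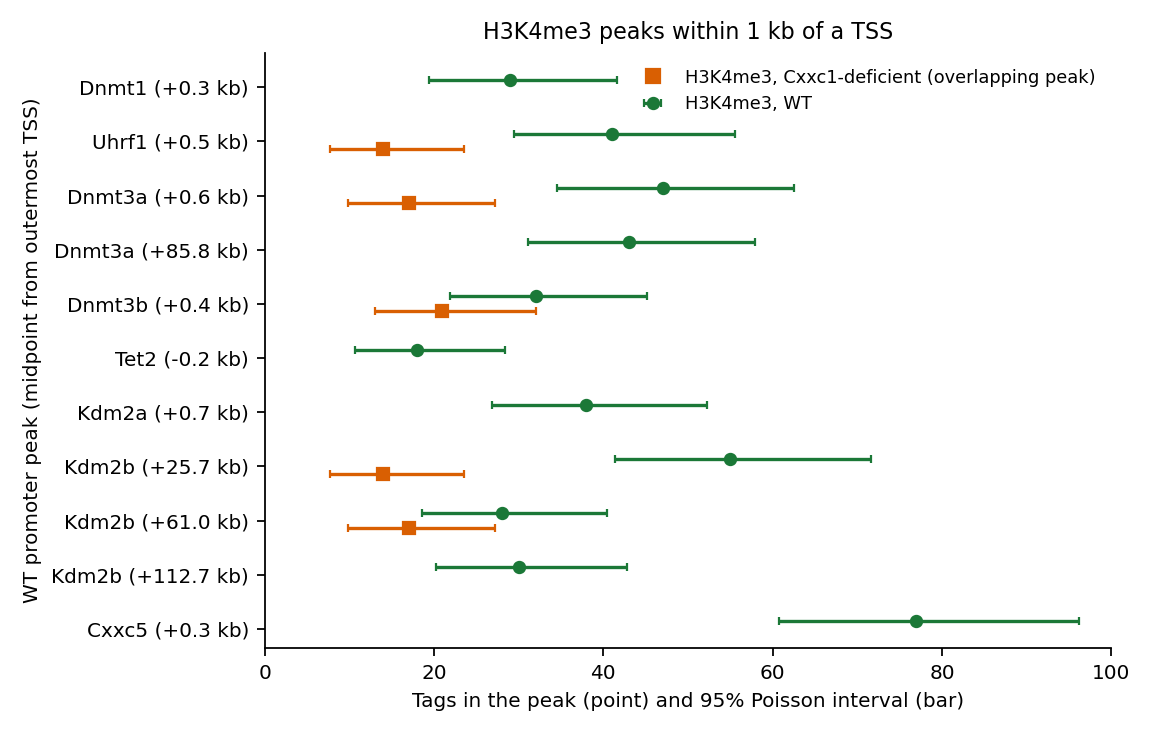
Tags (x axis) in the 11 WT H3K4me3 promoter peaks of the 10 genes (circles) and in the Cxxc1-deficient peak that overlaps each (squares), with 95% Poisson intervals, and with the distance of the WT midpoint from the outermost TSS beside each gene. A Cxxc1-deficient peak overlapped 5 of the 11, and each held fewer tags than its WT peak. The square at Kdm2b +25.7 kb is over 1 kb from a TSS.

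The 3 Tet genes, whose enzymes oxidise 5-methylcytosine, had the least WT H3K4me3 at a TSS of the 10. Tet2 (ENSMUSG00000040943.7, chromosome 3, 133126643 to 133207354, minus strand) had a WT promoter peak at 133207001 to 133208200 with 18 tags (10.7 to 28.4) and 1.8 RPM, stronger than that of only 11.7% of genes with one. The upstream sequence of Tet2 printed above was the richest in CpG of those shown. No Cxxc1-deficient or Cxxc1 window was listed at Tet2.

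Tet1 (ENSMUSG00000047146.8, chromosome 10, 62267318 to 62361866, minus strand) was the only gene of the 10 with no WT H3K4me3 peak in its body or the 10 kb before it. It had a Cxxc1 peak in an intron, 62335201 to 62337000, with 22 tags (13.8 to 33.3) and 2.2 RPM. It also had an intronic H3K4me3 peak in Cxxc1-deficient cells, 62327601 to 62329200, with 20 tags (12.2 to 30.9) and 2.0 RPM, 6.0 kb from the Cxxc1 peak. This was the 1 Cxxc1-deficient peak of 7 in these genes that overlapped no WT peak.

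Tet3 (ENSMUSG00000034832.8, chromosome 6, 83312367 to 83391669, minus strand) had no listed window at a TSS. Its 2 WT H3K4me3 peaks were in an intron (83360601 to 83362200, 2.3 RPM) and 9.73 kb upstream of the TSS (83400201 to 83402600, 2.8 RPM). The outermost TSS of Tet3 had a GC content of 64.6%, and CpG occurred there at 0.54 of the number that its C and G content would give. At its inner TSS these values were 54.4% and 0.18. At the outermost TSS of Tet1 they were 45.6% and 0.27, and at its inner TSS clusters 45.4% and 0.63, then 44.7% and 0.2.

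Kdm2a and Kdm2b are CXXC proteins that recognise CpGI and remove methyl groups from lysine 36 of histone H3, and Kdm2b also brings a Polycomb complex to CpGI. Kdm2a (ENSMUSG00000054611.8, chromosome 19, 4316170 to 4398266, minus strand) had a WT promoter peak at 4396601 to 4398600 with 38 tags (26.9 to 52.2) and 3.8 RPM. It covered 2 TSS clusters, and its windows stood mostly upstream of the inner one. A second WT peak of 1.8 RPM was intronic, and no Cxxc1-deficient or Cxxc1 window was listed.

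Kdm2b (ENSMUSG00000029475.11, chromosome 5, 123320677 to 123462883, minus strand) had the most WT H3K4me3 peaks of the 10 genes, 8, of which 3 lay at a TSS. Its main promoter region, 123435001 to 123439400, held 55 tags (41.4 to 71.6) and 5.5 RPM and lay within 1 kb of 3 TSS clusters, 23.1 to 24.3 kb downstream of the outermost annotated TSS, which had no listed window. The Cxxc1-deficient peak that overlapped it, 123434801 to 123435800, held 14 tags (7.7 to 23.5) and stood at its downstream end, with no window within 1 kb of those TSSs. The ratio of WT to Cxxc1-deficient tags was 3.93 (2.16 to 7.65), the highest of the 6 overlapping pairs. Only 2 windows were listed in both genotypes, with sums of 0.5 RPM in WT and 0.9 RPM without Cxxc1. The Cxxc1-deficient signal in the rest of the WT peak is unknown.

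Further into Kdm2b, at the TSS at 123402515, the WT peak held 28 tags (18.6 to 40.5) and the Cxxc1-deficient peak 17 (9.9 to 27.2), a ratio of 1.65 (0.871 to 3.21). Only 1 Cxxc1-deficient window, of 0.6 RPM, came within 1 kb of that TSS, and it is the reason that Kdm2b counted as marked in Cxxc1-deficient cells. The third WT promoter peak, 123349401 to 123351000, with 30 tags (20.2 to 42.8), had the most CpG of any WT peak in these genes, 116.2 per kb, and no Cxxc1-deficient counterpart. A Cxxc1 peak of 22 tags (13.8 to 33.3) and 2.2 RPM, 123339801 to 123341200, lay 1.91 kb upstream of the TSS at 123338589, which had no H3K4me3. It was 6.8 kb from the nearest WT H3K4me3 peak. The WT peak of 2.3 RPM at 123464601 to 123466200, in the upstream stretch, holds the TSS of Orai1, a calcium channel gene. No promoter peak of the 10 genes held the TSS of another protein-coding gene.

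**Figure D3:**
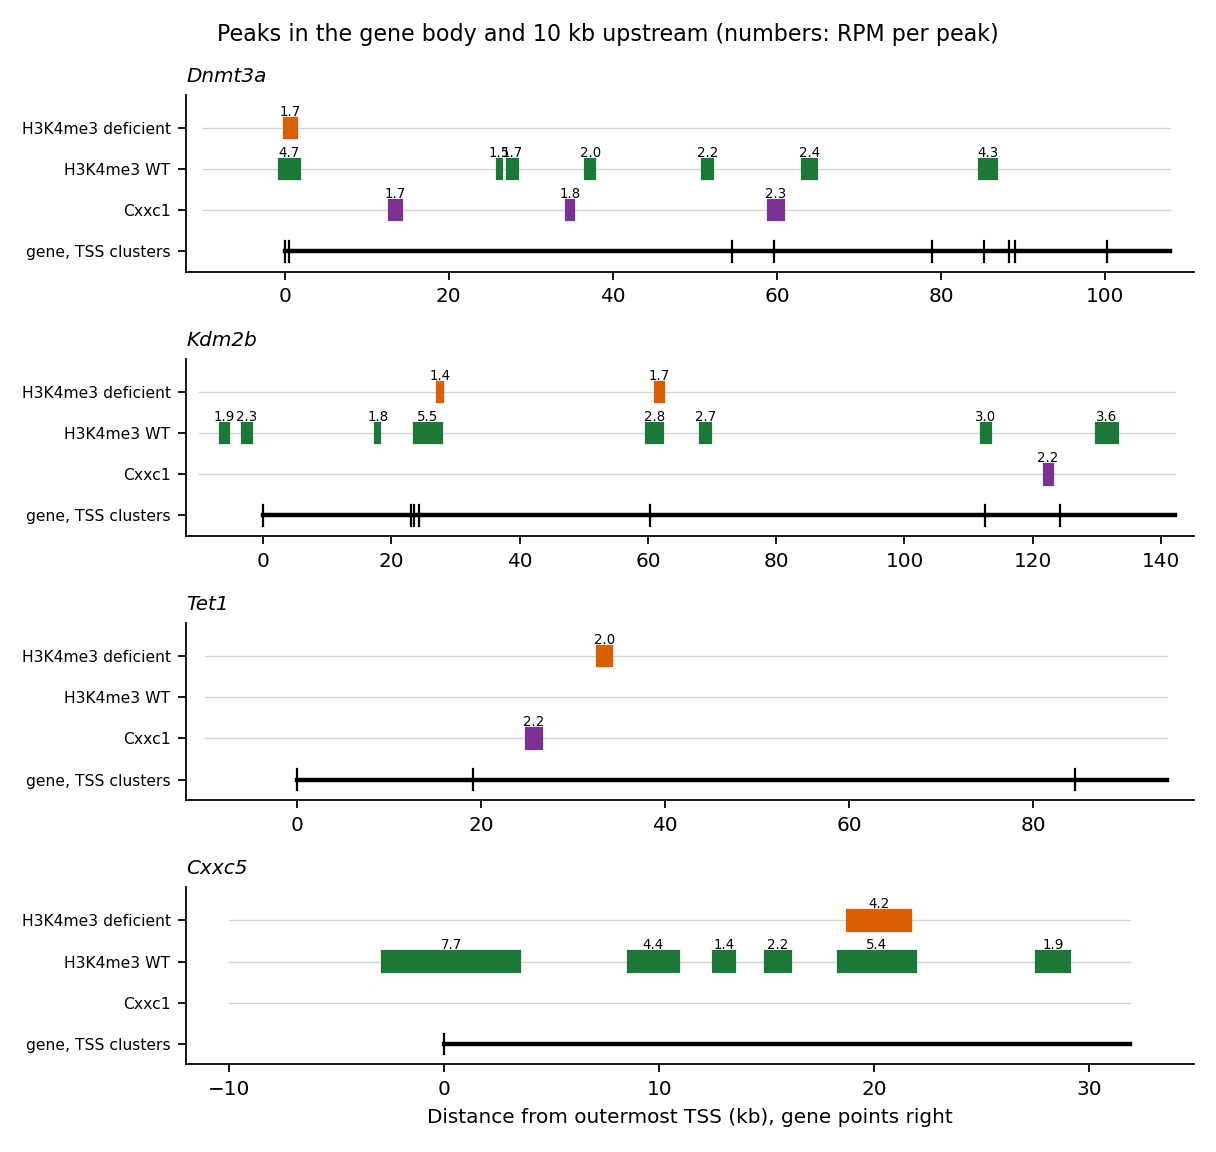
Peaks of the 3 lists in Dnmt3a, Kdm2b, Tet1 and Cxxc5, by distance from the outermost TSS (x axis, kb), with RPM per peak printed above each and TSS clusters as ticks on the gene line. The 5 Cxxc1 peaks overlap no H3K4me3 peak of either genotype, and Tet1 has a Cxxc1-deficient peak with no WT peak.

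Cxxc5, a CXXC protein that lacks an enzyme domain and acts in Wnt and BMP signalling (ENSMUSG00000046668.8, chromosome 18, 35989472 to 36021341, plus strand), had the strongest WT promoter peak of the 10 genes. It spanned 6.4 kb, 35986601 to 35993000, with 77 tags (60.8 to 96.2) and 7.7 RPM, above that of 99.0% of genes with one. No Cxxc1-deficient window was listed anywhere under it. In contrast, an intronic WT peak 20.13 kb downstream, 36007801 to 36011400, held 54 tags (40.6 to 70.5). The Cxxc1-deficient peak there, 36008201 to 36011200, held 42 tags (30.3 to 56.8) and 4.2 RPM, a ratio of 1.29 (0.843 to 1.97). It was the strongest Cxxc1-deficient peak of the 10 genes, above 98.4% of all Cxxc1-deficient peaks. The other 4 intronic WT peaks, of 1.4 to 4.4 RPM, had no Cxxc1-deficient counterpart.

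Over the 10 genes there were 32 WT H3K4me3 peaks, 11 at a TSS with a median of 3.8 RPM and 21 elsewhere with a median of 2.2 RPM. Of the 32, 6 overlapped a Cxxc1-deficient peak, against 8.17% of all WT peaks. Of the 7 Cxxc1-deficient peaks, 6 overlapped a WT peak, against 38.7% of all Cxxc1-deficient peaks. None of the 5 Cxxc1 peaks overlapped a WT H3K4me3 peak, and over the genome 6.30% of Cxxc1 peaks did. The median strongest WT promoter peak was 3.95 RPM for the 8 genes with one and 2.6 RPM for all genes with one.

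In the 6 places with a peak in both genotypes, the Cxxc1-deficient peaks held fewer tags over a shorter stretch: they held 125 tags in all against 257 in WT. All 6 were narrower than the WT peak, whereas 50.8% of all overlapping pairs of the genome were. All 5 that overlapped a promoter peak had their midpoint downstream of the WT midpoint, against 43.4% of such pairs. In the 24 windows that both genotypes shared, the Cxxc1-deficient value was higher in 13, lower in 7 and equal in 4, with sums of 9.7 RPM and 8.3 RPM in WT. Over the genome the Cxxc1-deficient value was higher in 30.0% of such windows. These windows had passed the calling threshold in both libraries, so they say nothing of the windows listed in only 1, and the RPM values have 1 decimal. These 3 comparisons were chosen after the values were seen.

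**Figure D4:**
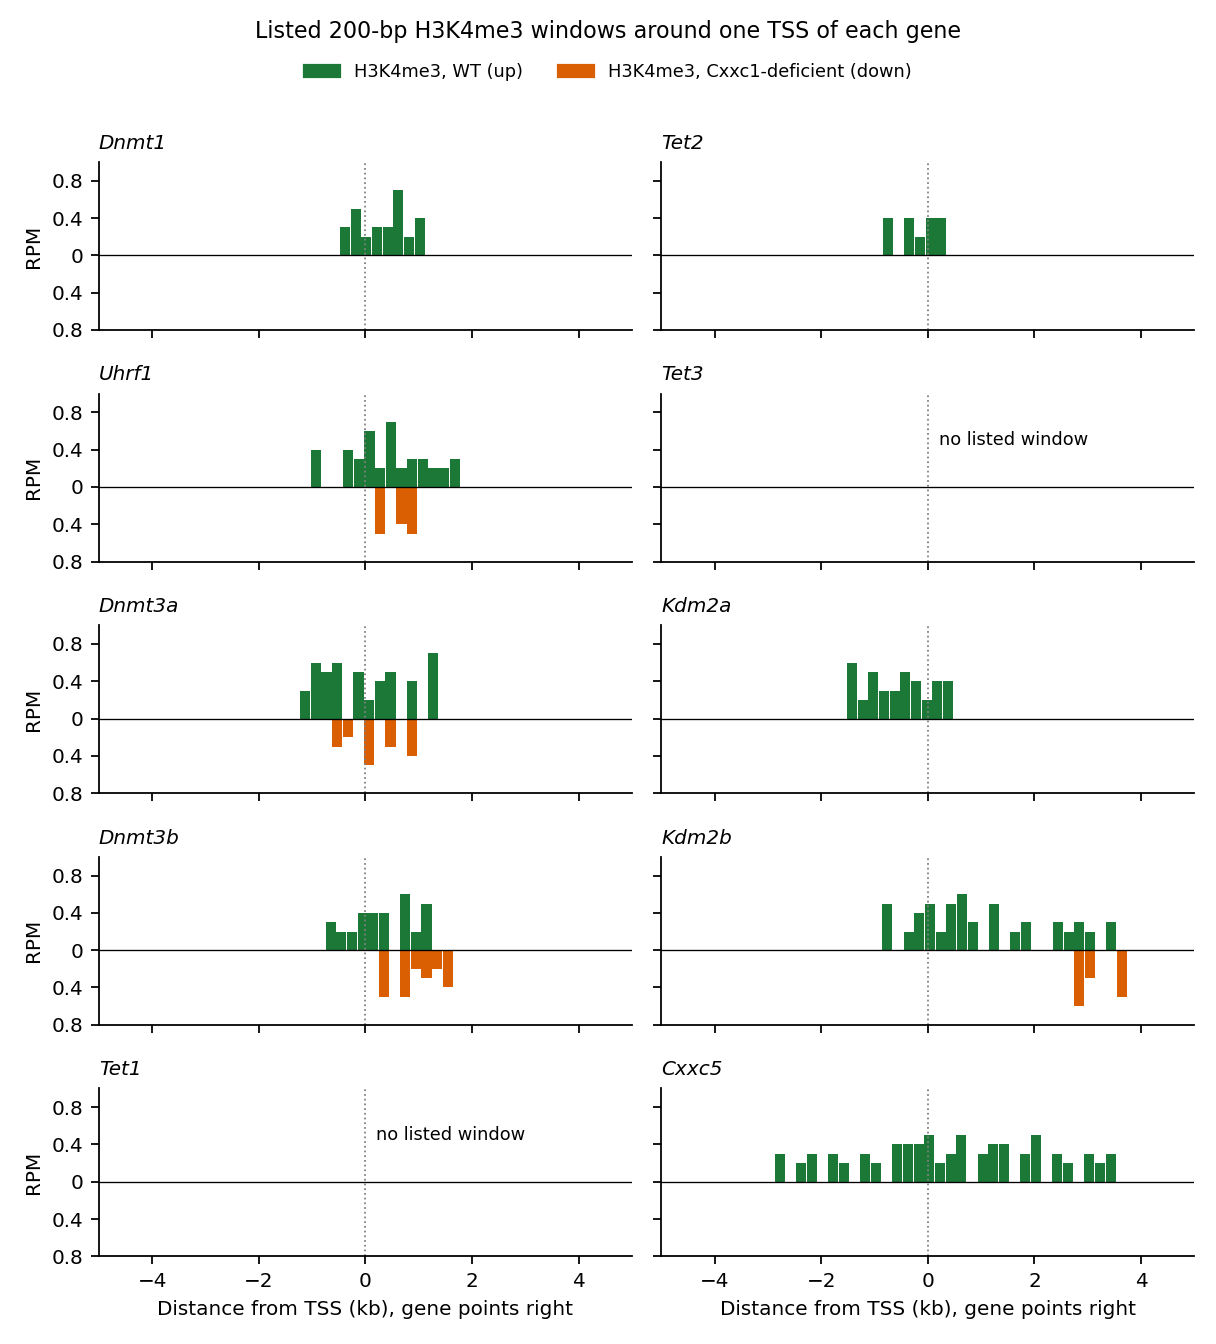
RPM of listed 200-bp H3K4me3 windows within 5 kb of 1 TSS of each gene (x axis, kb, gene to the right), WT upward and Cxxc1-deficient downward; the TSS is that with the most WT signal, or the outermost for Tet1 and Tet3. Cxxc1-deficient windows appear at Uhrf1, Dnmt3a and Dnmt3b beside the TSS and at Kdm2b about 3 kb inside the gene.

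Around the TSS with the most WT signal, the share of RPM within 2 kb that fell downstream of the TSS ranged from 21.1% at Kdm2a to 73.8% at Kdm2b. Uhrf1 (73.2%) and Dnmt1 (72.4%) were near the top of this range, and Tet2 (44.4%) and Dnmt3a (46.8%) had the lowest shares after Kdm2a. The TSS used lay 1.2 kb inside the outermost TSS for Kdm2a and 0.5 kb inside it for Dnmt3a, under the same peak. Windows between the outermost TSS and the TSS used counted as upstream, so these low shares depend on the TSS chosen. The median was 63.1% for the 8 genes and 56.0% for all genes with the mark.

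WT H3K4me3 was listed at every CpG-rich TSS of these genes. A TSS was called CpG-rich when the 1001 bases around it had a GC content of 55% or more and a ratio of observed to expected CpG of 0.65 or more. By the outermost TSS, 5 of the 10 genes were CpG-rich (Dnmt3a, Dnmt3b, Tet2, Kdm2a and Cxxc5), against 35.2% of all genes. All 5 had WT H3K4me3 at a TSS, against 55.9% of CpG-rich genes. Of these 5, Dnmt3a and Dnmt3b had it in Cxxc1-deficient cells, against 9.62% of CpG-rich genes. Counting each TSS cluster of the 10 genes on its own gave 31. All 9 CpG-rich clusters had WT H3K4me3, 4 had it in Cxxc1-deficient cells and 0 had Cxxc1. Over the 8906 CpG-rich clusters of all genes the shares were 54.7%, 9.24% and 2.47%. Of the 22 others, 7 had WT H3K4me3, 2 had it in Cxxc1-deficient cells and 1 had Cxxc1, and over the 22405 such clusters of all genes the shares were 14.6%, 2.93% and 1.19%. Clusters of 1 gene can lie under the same peak, as in Dnmt3a and Uhrf1, and are not independent.

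The Cxxc1 peaks of the 10 genes held 9.0 to 14.5 CpGs per kb, a narrow range near the median of 10.8 for all Cxxc1 peaks. Their WT H3K4me3 peaks ranged from 3.3 to 116.2 per kb with a median of 22.6, and the median over all WT peaks was 25.0. The 7 Cxxc1-deficient H3K4me3 peaks had up to 150.0 per kb, the highest at the outermost promoter of Dnmt3a, with a median of 31.4 against 17.9 for all Cxxc1-deficient peaks.

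**Figure D5:**
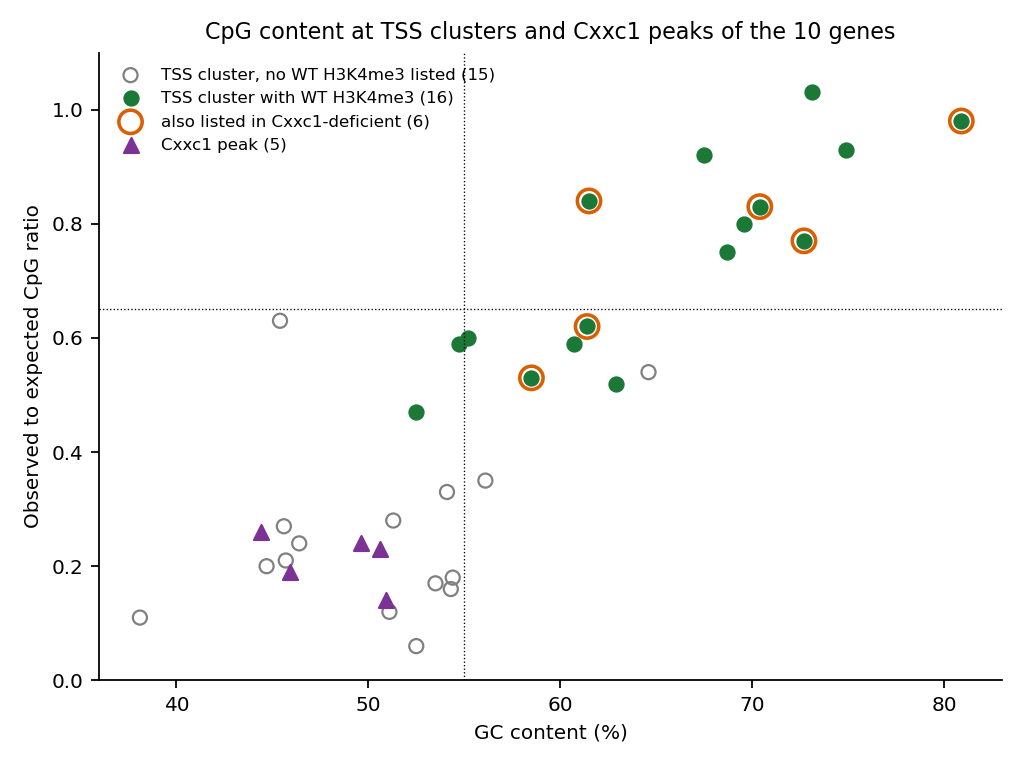
GC content (x axis, %) and observed to expected CpG ratio (y axis) of the 31 TSS clusters of the 10 genes (circles, filled with WT H3K4me3, ringed where also listed in Cxxc1-deficient cells) and of the 5 Cxxc1 peaks (triangles). Dotted lines mark 55% GC and a ratio of 0.65; all 9 clusters above both are filled, and the Cxxc1 peaks lie low on both axes.

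Among 27 further genes of DNA methylation and CpG binding, WT H3K4me3 was at a TSS in 17 (63.0%, against 31.1% of all genes). Cxxc1-deficient H3K4me3 was at a TSS in 5 (18.5%, against 5.86%). All 5 had the mark in WT, as had 893 of the 1312 such genes over all genes. By role, the mark was at a TSS of 4 of 5 other CXXC genes in WT and 0 of 5 in Cxxc1-deficient cells. Among genes of the methyl-CpG reader families it was 8 of 11 and 3 of 11, and among other genes of the machinery 5 of 11 and 2 of 11. Genes of the reader families marked in both were Mbd5 (3.8 RPM in WT, 2.0 RPM without Cxxc1), Zbtb4 (3.0 and 2.2 RPM) and Mbd2 (2.4 and 1.6 RPM). The Mbd5 peaks of both genotypes also held the TSS of Orc4, so the mark there cannot be assigned to either gene alone. Of the other machinery genes, those marked in both were Tdg, the glycosylase that excises the products of Tet enzymes (2.3 and 2.0 RPM), and the stress gene Gadd45b (4.1 and 1.7 RPM).

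Cxxc1 was listed in 3 of the 27: Gadd45b (1.5 RPM), Mbd2 (1.6 RPM) and the Cxxc1 gene itself. This share of 11.1% was near the 11.0% of all genes. The peak over the Cxxc1 gene had 596 tags and 65.0 RPM, far above the 1.7 to 2.3 RPM of the 10 genes described. Its 26 windows spanned 5.4 kb, 74376001 to 74381400, nearly the whole gene (74375785 to 74381145). By the methods the list was called against ChIP of Cxxc1-deficient cells, in which only some exons of this gene are deleted. Whether this signal is binding was not tested. WT H3K4me3 was listed at the TSS of Cxxc1 with 3.0 RPM, and Cxxc1-deficient H3K4me3 was not. Of all genes with promoter H3K4me3 in WT, 12.8% had it listed in Cxxc1-deficient cells, so its absence at 1 gene was common. The deletion could not be checked from these lists, since an unlisted place has no value.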

How the data were processed

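ChIP-seq of DP thymocytes was analysed from 3 lists (5 samples, 1 library a group); the input and the Cxxc1 ChIP of Cxxc1-deficient cells were not analysed here. Groups came from the sample titles. The Cxxc1 list names no genotype and was taken as WT from the study's methods, in which the Cxxc1-deficient ChIP was its control. Per the submitters' processing notes, CASAVA 1.8.2 and SICER 1.1 were used on mm9. SICER calls enriched regions from uniquely mapped reads. The methods name input and Cxxc1-deficient ChIP DNA as controls without saying which served for H3K4me3. The aligner and the treatment of duplicates are not given in the sources used here. The authors deposited 200-bp windows of called regions with a value in RPM at 1 decimal.

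Windows were joined across at most 2 missing windows. Tags were recovered from RPM through the value of 1 tag (0.1084 to 0.1099 RPM for Cxxc1, 0.1056 to 0.1062 RPM for H3K4me3), inferred from which decimals occur. Genes were protein-coding transcripts of GENCODE vM1 on NCBIM37, and all TSSs were used. Tag intervals were exact Poisson, ratio intervals exact conditional binomial, at 95%, and cover counting error only. Ratios used all tags of each listed peak, whatever its width, so tags in unlisted windows were left out. Python 3.11.15, pandas 2.3.3, numpy 2.4.6, scipy 1.17.1 and matplotlib 3.10.9 were used. In a check of the code, simulated windows were placed at 200 TSSs without background, and all 200 were found. Peak calling itself was not tested. The genes and lists were chosen with earlier results of these data known. Genes named by rule were the 10, other genes with a TSS in their promoter peaks (none was found), the cell type markers and, of 27 related genes, those marked in both genotypes or with Cxxc1. Plin3, Orai1 and Orc4, which lie by other peaks, were named after their values were seen. Alternatives were another promoter distance (500 bp, 2 kb), the outermost TSS only, 50% overlap, the stronger 50% of peaks, a common minimum strength, other joining rules and other upstream limits. The marker Ptcra was not matched in the annotation. A further gene and a sequence are not reported here.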

Additional observations from a re-analysis of the deposited data

How the results depend on the processing

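No paired analysis was possible because there was only 1 library in a group. Of 46 recomputed counts over 7 results, 39 stayed within 1.5 times the first value and 7 moved. With only the stronger 50% of each list, the genes with Cxxc1-deficient H3K4me3 at a TSS, and those with it in both genotypes, went from 4 to 1 (Dnmt3b), and those with a Cxxc1-deficient peak in the gene body or 10 kb upstream from 6 to 3. With a common minimum of 2.3 RPM per H3K4me3 peak, both promoter counts went to 0, since fewer peaks were kept by construction. The background shares then fell from 5.86% to 3.59% and 2.29% for Cxxc1-deficient H3K4me3 at a TSS. For the mark at a TSS in both genotypes they fell from 3.99% to 1.91% and 1.33%. For a Cxxc1-deficient peak in the gene body or 10 kb upstream the share fell from 10.9% to 6.44% with the stronger 50%. Cxxc1 at a TSS went from 1 to 2 within 2 kb, where Kdm2b joined, and to 0 with the outermost TSS only. The shares of all genes were 1.96%, then 2.64% and 1.57%. Kdm2b dropped from the Cxxc1-deficient promoter count, leaving 3 genes, within 500 bp, with the outermost TSS only and with 50% overlap. The shares of all genes were then 5.47%, 5.25% and 5.19%. WT H3K4me3 at a TSS stayed at 7 or 8, against 20.1% to 32.5% of all genes. With 9.1 to 9.47 M tags a library and peaks of 14 to 77 tags, the ratio intervals of Dnmt3b (1.52), the inner Kdm2b TSS (1.65) and the Cxxc5 intron (1.29) included 1. Signal below the 10 tags of the weakest listed peak could not be seen. The 5th percentile of tags per listed peak was 15 in each H3K4me3 list, so unlisted places may hold more than 10 tags.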
